A study of Mus musculus with 8 samples.

Results

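B cell surface and identity markers were followed in the lungs of a COPD mice model as 9 genes chosen by name: *Cd79a*, *Cd79b*, *Ms4a1*, *Cr2*, *Cd22*, *Fcer2a*, *Fcrla*, *Blk* and *Pax5*. They are 9 of the 52636 gene identifiers in the count tables, and all 9 were among the 20546 genes with enough counts to be tested. No gene of the 9 was at 0 in any library, and their counts ran from 171 to 1385 reads.

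The data are RNA sequencing of lung from wild type male C57BL/6 mice, as 8 libraries from 4 groups of 2. Control mice were given PBS into the trachea. The COPD mice model (model mice) was given porcine pancreatic elastase (PPE), which causes emphysema, at 10 weeks of age, followed by lipopolysaccharide (LPS), a bacterial inflammatory stimulus, starting at 12 weeks. Both kinds of mice were fed either a control diet or a diet with 2% TJ-41 (hochuekkito, a Japanese herbal medicine) from 8 weeks of age. The age at which the lungs for sequencing were taken is not given in the sources used here, nor is it stated whether each library came from a separate mouse, so the p-values measure only the spread between these libraries. A model made by elastase and LPS develops within weeks, unlike human disease caused by years of smoke exposure. The questions put to the B cell genes were whether their RNA differed between model mice and control mice on each diet, and whether the diet moved it in either.

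B cells recognise antigen through a membrane immunoglobulin whose signal is passed on by the CD79 chains, and co-receptors on the surface raise or dampen that signal. The transcription factor Pax5 holds the B cell programme in place, and it is switched off, with much of the surface set, when a B cell becomes an antibody-secreting plasma cell. In inflamed airways B cells can gather in lymphoid follicles around bronchi and vessels, while in healthy lung they are a small share of the cells. In RNA from whole tissue, fewer B cells and less RNA per B cell cannot be told apart.

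Promoter sequences are shown for *Cd79a*, whose RNA varied least like the rest of the set, for *Cr2* and *Pax5*, whose levels were among the most closely correlated, and for *Fcrla*, whose window held the most motif matches. They run 5′ to 3′ from 250 bases before to 50 bases after the RefSeq start site on GRCm38.p6, and capitals mark matches to the motifs described after them.
Cd79a promoter, chr7:24897247-24897546, forward strand: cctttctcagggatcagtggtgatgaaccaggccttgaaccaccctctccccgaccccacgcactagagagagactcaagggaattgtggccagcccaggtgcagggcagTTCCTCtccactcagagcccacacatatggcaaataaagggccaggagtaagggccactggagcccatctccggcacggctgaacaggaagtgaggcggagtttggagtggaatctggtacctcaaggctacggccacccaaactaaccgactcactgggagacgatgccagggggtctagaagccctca
Cr2 promoter, chr1:195176670-195176969, reverse strand: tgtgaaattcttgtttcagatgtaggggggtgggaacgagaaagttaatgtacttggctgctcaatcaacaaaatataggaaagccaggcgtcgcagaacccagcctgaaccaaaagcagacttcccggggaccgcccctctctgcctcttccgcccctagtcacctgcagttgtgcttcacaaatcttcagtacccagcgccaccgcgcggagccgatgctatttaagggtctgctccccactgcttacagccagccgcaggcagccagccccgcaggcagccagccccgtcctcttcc
Pax5 promoter, chr4:44710645-44710944, reverse strand: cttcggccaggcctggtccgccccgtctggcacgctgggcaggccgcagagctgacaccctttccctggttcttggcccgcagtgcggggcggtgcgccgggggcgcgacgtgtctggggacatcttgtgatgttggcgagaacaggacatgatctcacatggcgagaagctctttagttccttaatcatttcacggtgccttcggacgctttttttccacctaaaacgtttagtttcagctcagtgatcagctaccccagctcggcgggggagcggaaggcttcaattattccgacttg
Fcrla promoter, chr1:170927534-170927833, reverse strand: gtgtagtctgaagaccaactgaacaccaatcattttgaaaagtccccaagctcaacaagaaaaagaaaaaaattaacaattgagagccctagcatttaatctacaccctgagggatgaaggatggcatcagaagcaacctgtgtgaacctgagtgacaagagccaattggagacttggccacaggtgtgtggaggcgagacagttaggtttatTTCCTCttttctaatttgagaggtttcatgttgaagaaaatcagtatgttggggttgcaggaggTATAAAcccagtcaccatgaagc

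RefSeq promoter entries were found for 6 of the 9 genes (*Cd79a*, *Cr2*, *Pax5*, *Fcrla*, *Fcer2a* and *Cd22*). For *Fcer2a*, which had 3 entries, the one nearest the annotated 5′ end was read. The windows were searched on both strands for 4 letter strings: the octamer ATGCAAAT bound by Oct factors, CCCNNGGG as the core of the EBF motif, GAGGAA as a purine box of the PU.1 kind, and TATAAA. The purine box was found in *Cd79a*, 140 bases upstream of the start site, and in *Fcrla*, 37 bases upstream, and 28.3% of 32851 mouse promoters hold it. The TATA string was found in *Fcrla*, 27 bases downstream, and in *Fcer2a*, 33 bases upstream, against 13.6% of all promoters. The EBF core was found in *Cd22*, 48 bases upstream, against 13.7% of all promoters. The octamer, present in 1.74% of promoters, was in none of the 6 windows, and *Cr2* and *Pax5* held none of the 4 strings.

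Levels are given as CPM, read counts scaled to a common library size, after TMM scaling, with replicate 1 before replicate 2 in each group. Fold changes are log2 values from edgeR's quasi-likelihood test over all 8 libraries, with their standard error (SE). A gene was called where the Benjamini-Hochberg false discovery rate was under 0.05 and the log2 fold change was beyond 1. The libraries held 18767295 to 20888042 counts, so that 3 counts, the limit of what a count of 0 allows, came to 0.153 to 0.162 CPM. The replicates of model mice fed control diet stood apart from each other: the SD of the log2 difference between replicates over genes was 0.798 in that group and 0.394 to 0.469 in the other 3. The main results that rest on this pair are therefore also given without each of its libraries. Lung markers such as *Sftpc* summed to 37635 to 46061 CPM in control mice and 32262 to 67303 CPM in model mice.

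No B cell gene was called between model mice and control mice, on either diet or over both, but all 9 had a lower mean over both diets in model mice. The log2 fold changes over both diets ran from -0.68 for *Ms4a1* to -0.21 for *Fcer2a*, with a median of -0.49, where the median of all genes tested was -0.0017. The adjusted p-values of the 9 genes ran from 0.468 to 0.710 (edgeR's quasi-likelihood test, Benjamini-Hochberg adjusted), and 0.443% of all genes were called in this comparison. At an unadjusted p under 0.05 there were 2 of the 9 genes, *Pax5* (0.0443) and *Fcrla* (0.0475), beside 10.4% of all genes. DESeq2 also called 0 of the 9, where it called 1.24% of all genes. It had 4 of the 9 at an unadjusted p under 0.05, and its share of all genes at that p was not computed. This mean hides unlike libraries, as the plot of each library shows.

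**Figure D1:**
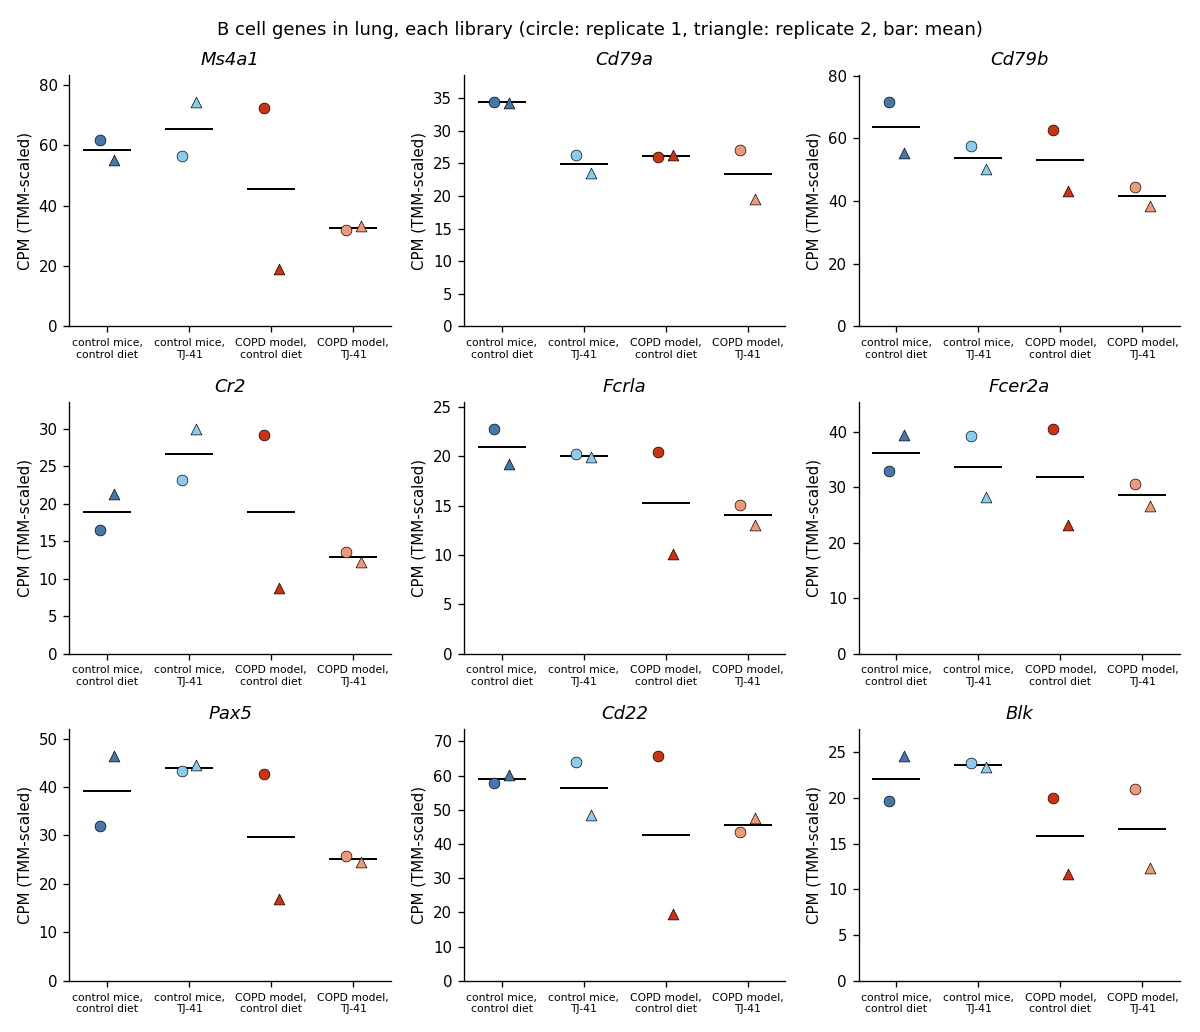
CPM of the 9 B cell genes in each library (vertical axes start at 0), by group, with circles for replicate 1, triangles for replicate 2 and bars for the mean of 2. For 8 of the 9 genes, replicate 2 of model mice fed control diet lies below all 4 control libraries, while replicate 1 of that group lies within or above the control range.

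Over the 9 genes, replicate 1 of model mice fed control diet had a median level of 1.07 times the control mean. It had 0 genes below all 4 control libraries and 2 above them, where 21.7% of all genes tested lay above. Replicate 2 had a median of 0.493 times the control mean, with 8 genes below all controls, all but *Cd79a*. In model mice on TJ-41, replicate 1 had a median of 0.757 with 6 genes below all controls, and replicate 2 had a median of 0.634 with 9 below. Of all genes tested, 25.6%, 35.1%, 23.9% and 21.5% lay below all 4 controls in these libraries, in the same order. Thus 3 of the 4 model libraries were low in most of the set, and the fourth was not.

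*Cd79a* and *Cd79b* encode the signalling chains that pair with membrane immunoglobulin to form the B cell receptor. *Cd79a* (chr7:24897381-24902197, GRCm38, forward strand) was at 34.4 and 34.3 CPM in control mice fed control diet, 26.3 and 23.6 in control mice fed TJ-41, 26.0 and 26.3 in model mice fed control diet, and 27.1 and 19.6 in model mice fed TJ-41. The control mice fed control diet were above all other libraries, and the other 3 groups overlapped. *Cd79b* (chr11:106311341-106314762, reverse strand) was at 71.7 and 55.3 CPM, 57.6 and 50.1, 62.7 and 43.3, and 44.5 and 38.5 in the same order. The 3 lowest libraries of *Cd79b* were all of model mice, but replicate 1 of model mice fed control diet lay within the control range. Over both diets the log2 fold change in the model was -0.24 (SE 0.14) for *Cd79a* and -0.32 (SE 0.15) for *Cd79b*.

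*Ms4a1* encodes CD20, a surface protein of mature B cells that therapeutic antibodies target. Its levels (chr19:11249675-11266241, reverse strand) were 61.7 and 55.1 CPM in control mice fed control diet, 56.5 and 74.4 in control mice fed TJ-41, 72.2 and 19.2 in model mice fed control diet, and 32.0 and 33.2 in model mice fed TJ-41. On TJ-41 the 2 groups did not overlap, whereas on the control diet the 2 model libraries lay on either side of the controls. *Ms4a1* had the widest range of the 9 genes, its highest library being 3.88 times its lowest.

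*Cr2* encodes the complement receptors CD21 and CD35, which raise the response to antigen coated with complement. It was at 16.5 and 21.2 CPM in control mice fed control diet, 23.2 and 29.95 in control mice fed TJ-41, 29.1 and 8.77 in model mice fed control diet, and 13.6 and 12.2 in model mice fed TJ-41 (chr1:195136811-195176716, reverse strand). Its 3 lowest libraries were of the model, and replicate 1 of model mice fed control diet was second highest of all. *Cd22*, an inhibitory receptor for sialic acid, was at 57.7 and 60.2 CPM, 64.1 and 48.6, 65.7 and 19.5, and 43.7 and 47.8 in the same order (chr7:30865402-30880342, reverse strand). For *Cd22* model mice fed TJ-41 lay just under the control range, while model mice fed control diet held both the highest and the lowest library. *Fcer2a* encodes CD23, the low-affinity IgE receptor of follicular B cells, and was at 33.1 and 39.4 CPM, 39.3 and 28.3, 40.6 and 23.2, and 30.7 and 26.7 (chr8:3681737-3694175, reverse strand). The groups of *Fcer2a* overlapped on both diets.

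*Blk* encodes a Src-family kinase that acts under the B cell receptor. It was at 19.7 and 24.6 CPM in control mice fed control diet, 23.8 and 23.4 in control mice fed TJ-41, 20.02 and 11.7 in model mice fed control diet, and 20.9 and 12.4 in model mice fed TJ-41 (chr14:63372836-63417037, reverse strand). In both model groups replicate 2 was the lower library of *Blk*, and replicate 1 was near the control level. *Fcrla*, an Fc receptor-like protein kept inside B cells, was at 22.8 and 19.2 CPM, 20.2 and 19.9, 20.4 and 10.1, and 15.03 and 13.0 in the same order (chr1:170917576-170927583, reverse strand). Its 3 lowest libraries were again of the model.

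*Pax5*, the transcription factor that commits cells to the B lineage, was at 32.0 and 46.4 CPM in control mice fed control diet, 43.4 and 44.6 in control mice fed TJ-41, 42.6 and 16.9 in model mice fed control diet, and 25.8 and 24.5 in model mice fed TJ-41 (chr4:44524757-44710487, reverse strand). Model mice fed TJ-41 lay below all 4 control libraries. Over both diets its log2 fold change was -0.60 (SE 0.26). The exons of *Pax5* are overlapped by 2 genes on the opposite strand (*Gm12462* and *5730488B01Rik*) and those of *Cd22* by 1 (*Gm29439*). Because the strand setting of the counting is not given in the sources used here, reads of these partners cannot be told apart from reads of *Pax5* and *Cd22*. Of the stretches of 50 bases in the annotated transcripts, 8.31% in *Cd79a* are shared with *Gm32220*, and the shares were 7.02% in *Pax5*, 7.84% in *Cd22*, 1.21% in *Ms4a1*, 1.195% in *Fcer2a* and 0% in the other 4.

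Divided by summed exon length, the levels had a partly stable order. *Cd79b* had the highest level, with a median of 36.8 CPM per kilobase, followed by *Cd79a* at 18.1, and these stood in that order, above all others, in 8 of 8 libraries. *Fcrla* (11.2), *Cd22* (10.5), *Fcer2a* (10.3), *Ms4a1* (9.02) and *Blk* (7.59) followed in medians, but their ranges overlapped and their order changed from library to library. *Pax5* at 4.21 was below *Blk*, and *Cr2* at 2.32 was below *Pax5*, in 8 of 8 libraries, although the ranges of these neighbours overlapped across libraries.

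On the control diet, where elastase and LPS were set against PBS without the herbal diet, 8 of the 9 genes had a lower mean in model mice and *Cr2* had the same mean to within its error, with a log2 fold change of 0.0054 (SE 0.44). The median was -0.39, no gene was called beside 0.122% of all genes, and the adjusted p-values ran from 0.704 to 0.999. At an unadjusted p under 0.05 there was 0 of the 9 by edgeR, beside 7.7% of all genes. DESeq2 called 0 of the 9, where it called 0.832% of all genes, and had 0 of the 9 at that p. *Cd79a* was the only gene of the 9 whose 2 groups did not overlap, at a log2 fold change of -0.39 (SE 0.19), where 14.1% of all genes were lower without overlap.

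This comparison turned on which library stood for the model. Without replicate 1 of model mice, 5 of the 9 genes were called lower: *Ms4a1* at -1.61, *Cd22* at -1.60, *Pax5* at -1.22, *Cr2* at -1.11 and *Fcrla* at -1.06, with adjusted p-values from 0.00238 to 0.0189. That fit called 6.28% of all genes, and its single model library was taken to vary like the other groups. Without replicate 2, 5 of the 9 genes were higher and 4 lower, with *Ms4a1* at 0.31, *Cr2* at 0.63 and a median of 0.12. *Cd79a* was nearly the same in both fits, at -0.39 and -0.40.

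**Figure D2:**
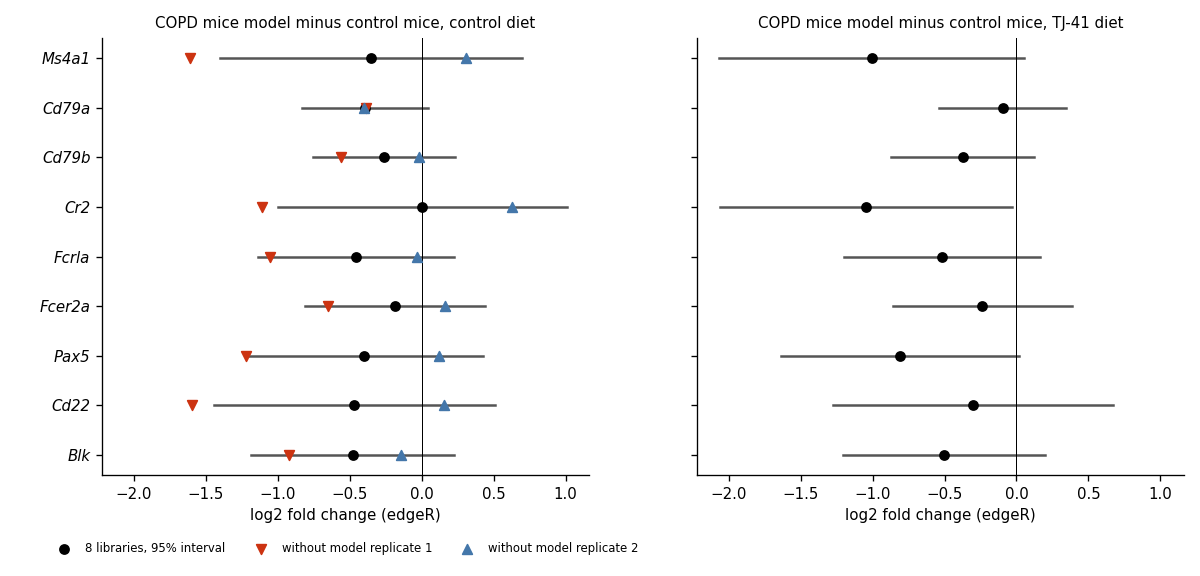
Log2 fold change of model mice over control mice for each B cell gene, on the control diet (left) and on TJ-41 (right), with points for the fit of 8 libraries and lines for the 95% interval. On the left, downward triangles leave out model replicate 1 and upward triangles leave out replicate 2, which moved *Ms4a1* from -1.61 to 0.31.

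On the TJ-41 diet all 9 genes had a lower mean in model mice. The 2 model libraries differed by at most 0.21 on the log2 scale in 7 of the 9 genes, while replicate 2 was lower by more in *Cd79a* (-0.47) and *Blk* (-0.75). *Cr2* had a log2 fold change of -1.05 (SE 0.45, unadjusted 0.0446), *Ms4a1* of -1.01 (SE 0.47), *Pax5* of -0.81 (SE 0.37), *Fcrla* of -0.52 (SE 0.30), *Blk* of -0.50 (SE 0.31), *Cd79b* of -0.38 (SE 0.22), *Cd22* of -0.30 (SE 0.43), *Fcer2a* of -0.24 (SE 0.28) and *Cd79a* of -0.10 (SE 0.19). The groups did not overlap for 7 of the 9, all but *Cd79a* and *Fcer2a*, where 27.9% of all genes were lower without overlap. None was called beside 0.0779% of all genes, with adjusted p-values from 0.753 to 0.896 and 1 of the 9 at an unadjusted p under 0.05, beside 6.56% of all genes. DESeq2 called 0, where it called 0.674% of all genes. It had 3 of the 9 at an unadjusted p under 0.05, and its share of all genes at that p was not computed.

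The spread that entered this test came from all 4 groups, including the pair that stood apart. In a fit of only the 2 groups on TJ-41, *Ms4a1* (-1.01, adjusted p = 0.00968) and *Cr2* (-1.05, adjusted p = 0.0143) were called lower by edgeR's quasi-likelihood test, Benjamini-Hochberg adjusted. *Pax5* passed the false discovery rate (adjusted p = 0.00829) but not the fold threshold, at -0.81. This fit called 1.25% of all genes. In the fit of all groups, *Cr2* was also called without replicate 1 (-1.04) or without replicate 2 (-1.03) of model mice fed control diet, in fits that called 0.772% and 0.791% of all genes.

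Over both diets, leaving out replicate 1 of model mice fed control diet gave 3 genes called lower, *Ms4a1* at -1.30, *Cr2* at -1.07 and *Pax5* at -1.01, beside 4.08% of all genes. Leaving out replicate 2 instead gave *Ms4a1* at -0.34, *Cr2* at -0.20 and *Pax5* at -0.34, with a median of -0.24 and all 9 genes lower.

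The 2 replicates of model mice fed control diet also differed in the genes they favoured. Over 18038 genes the log2 difference between them had a correlation of 0.51 with transcript GC content and of -0.19 with exon length. The B cell genes lay below the median of their length class in this pair, from *Cd79b* at -0.53 to *Ms4a1* at -1.91, except that *Cd79a* was at 0.016, also under its class median of 0.27. After a correction of each library for length and GC content, chosen after seeing these data, all 9 genes were lower in replicate 2. The differences then ran from -0.47 for *Cd79a* to -1.91 for *Cd22*. They shrank in *Ms4a1* (from -1.91 to -1.31) and *Cr2* (from -1.72 to -1.14). In all the others replicate 2 lay lower than before the correction, as in *Cd79b* (from -0.53 to -0.95). With the correction, 0 of the 9 genes were called over both diets, beside 0.462% of all genes. All 9 stayed lower and the median was -0.42.

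**Figure D3:**
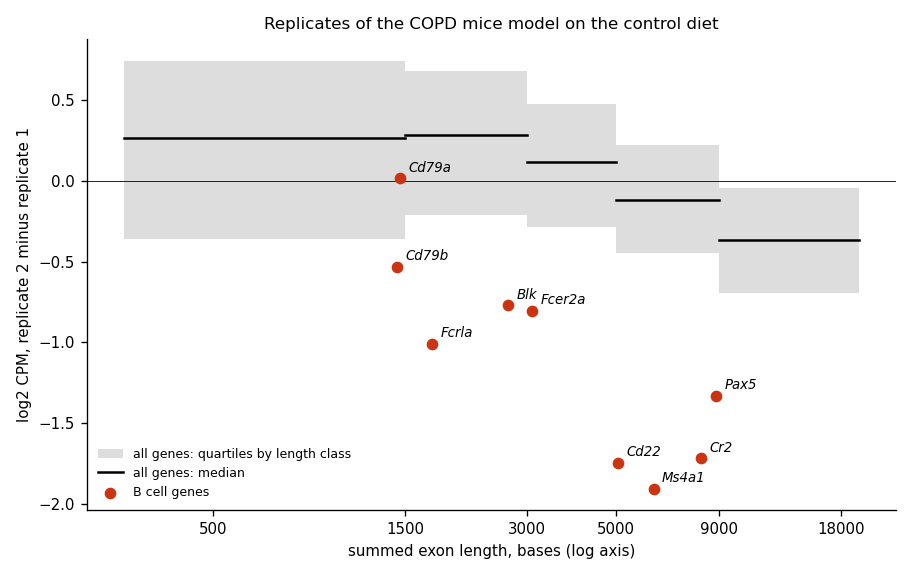
Log2 CPM difference between replicates 2 and 1 of model mice fed control diet, against summed exon length on a log axis. Black lines and grey boxes are the medians and quartiles of all genes by length class, and red points are the B cell genes, of which 8 lie between -0.53 and -1.91.

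The TJ-41 diet was compared with the control diet within each kind of mouse, to see whether the herbal diet moved the B cell genes. In control mice, *Cr2* was higher without overlap on TJ-41 (log2 fold change 0.49, SE 0.44) and *Cd79a* was lower without overlap (-0.46, SE 0.19, unadjusted 0.0413), where 19.1% of all genes were higher and 19.1% lower without overlap. The other 7 overlapped, and 0 of the 9 genes and 0% of all genes were called, with adjusted p-values of 0.996 to 0.998 and 1.64% of all genes at an unadjusted p under 0.05. DESeq2 called 0 of the 9, where it called 0.0487% of all genes, with 0 of the 9 at an unadjusted p under 0.05.

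In model mice all 9 genes overlapped between the diets, where 14.1% of all genes were higher and 14.9% lower without overlap. The log2 fold changes on TJ-41 ran from -0.56 (SE 0.45) for *Cr2* to 0.10 (SE 0.43) for *Cd22*, with a median of -0.17. By edgeR 0 of 9 were called beside 0.00487% of all genes, with 0 at an unadjusted p under 0.05 beside 4.1%. DESeq2 called 0 of 9 beside 0.0584% of all genes, with 0 of 9 at an unadjusted p under 0.05. The 95% interval of *Ms4a1* reached from -1.54 to 0.57, so a difference of 1 on the log2 scale in the lower direction was within it. Without replicate 1 of model mice fed control diet *Cd22* was called higher on TJ-41, at 1.23 (adjusted p = 0.0117), in a fit that called 3.41% of all genes, and without replicate 2 it was at -0.52. *Ms4a1* moved likewise between 0.77 and -1.15, and 7 of the 9 genes were higher on TJ-41 without replicate 1 and lower without replicate 2, while *Cd79a* and *Cd79b* were lower in both fits.

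Over both kinds of mice the diet effects ran from -0.31 (SE 0.14, unadjusted 0.0482) for *Cd79a* to 0.082 (SE 0.22) for *Blk*. By edgeR 0 of the 9 and 0% of all genes were called, with *Cd79a* as 1 of 9 at an unadjusted p under 0.05 (2.48% of all genes). DESeq2 called 0 of the 9 beside 0.0243% of all genes, with 0 of the 9 at an unadjusted p under 0.05. The difference between the diet effect in the model and that in control mice was largest in size for *Cr2*, at -1.05 (SE 0.63). By edgeR all 9 had an adjusted p of 0.999 for that difference, with 0 of 9 and 0% of all genes called. DESeq2 called 0 of 9 beside 0.0827% of all genes. Both had 0 of 9 at an unadjusted p under 0.05, where edgeR had 3.27% of all genes.

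Across the 8 libraries, 8 of the 9 genes had like patterns and *Cd79a* less so. Pearson's r of log2 CPM over 8 libraries was 0.58 to 0.95 in the 28 pairs without *Cd79a*, with *Cr2* and *Pax5* and also *Ms4a1* and *Fcrla* at 0.95. In the 8 pairs with *Cd79a* it was 0.12 to 0.70, highest with its partner *Cd79b*. These libraries share the gap between the 2 replicates of model mice fed control diet, so the values describe these 8 libraries only.

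**Figure D4:**
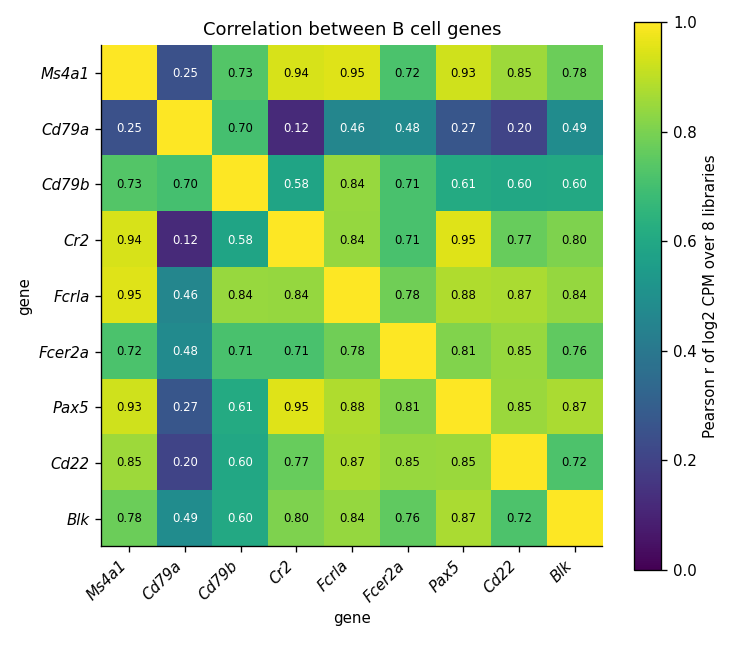
Pearson's r of log2 CPM between each pair of B cell genes over the 8 libraries (colour from 0 to 1, with the value in each cell). The row of *Cd79a* has the lowest correlations, from 0.12 with *Cr2* to 0.70 with *Cd79b*.

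Among the other genes tested, the 10 whose levels were most like the mean of the set included *Ighd*, *H2-Ob*, *Tbx3*, *Traf3ip3*, *Erc2*, *Scn4a*, *Siglecg*, *Trim30c* and *4930557K07Rik*. Pearson's r of the 10 with the mean of the standardized log2 CPM of the 9 genes ran from 0.967 to 0.983 over 8 libraries, where 1% of all genes lay above 0.889. *Ighd* encodes the IgD heavy chain of naive B cells, *Siglecg* an inhibitory receptor of B cells and *H2-Ob* a chain of the class II modulator that B cells express. Other names in these 10, such as *Tbx3*, a transcription factor of lung mesenchyme among other tissues, and the muscle sodium channel *Scn4a*, are not B cell genes.

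*Ighd* and *Ighm*, the heavy chains of naive B cells, differed in pattern. *Ighd* was at 128 and 131 CPM in control mice fed control diet, 132 and 108 in control mice fed TJ-41, 124 and 52.7 in model mice fed control diet, and 79.8 and 75.4 in model mice fed TJ-41. *Ighm*, which plasma cells that secrete IgM also transcribe, was at 324 and 327 CPM, 482 and 355, 1501 and 910, and 1350 and 1245. All 4 model libraries were above all 4 control libraries in *Ighm*, while *Ighd* overlapped. Over both diets *Ighm* was higher in the model and called, at a log2 fold change of 1.76 (SE 0.19, adjusted p = 0.00520). *Ighd* was not called, at -0.59 (SE 0.23, adjusted p = 0.410). It was at -0.96 without replicate 1 and at -0.34 without replicate 2 of model mice fed control diet. On the control diet alone *Ighd* was at -0.55 with all libraries, and at -1.30 and -0.059 in the same 2 fits. By diet, *Ighm* was called at 1.89 on the control diet (adjusted p = 0.0465) and not called at 1.63 on TJ-41 (adjusted p = 0.0960). In a fit of only the 2 groups, edgeR's quasi-likelihood test called it on TJ-41 (adjusted p = 0.00162). The like fit on the control diet did not call it (adjusted p = 0.142). DESeq2 called it on both diets. On the control diet it was also not called with library size alone or with the length and GC correction. There it was at 1.48 without replicate 1 and 2.21 without replicate 2 of model mice.

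Within each library the ratio of *Ighm* to *Ighd* CPM was 2.50 to 3.64 in control mice and 12.1 to 17.3 in model mice, including both replicates on the control diet. The ratio of *Ighm* to *Ms4a1* was 4.77 to 8.54 in control mice and 20.8 to 47.4 in the model. Ratios among the B cell genes themselves overlapped, with *Cr2* over *Ms4a1* at 0.267 to 0.411 in control mice and 0.367 to 0.457 in the model, and *Cd79a* over *Ms4a1* at 0.317 to 0.621 and 0.360 to 1.37. The call of *Ighm* over both diets held without replicate 1 (1.56) and without replicate 2 (1.93) of model mice fed control diet. It was lost at nearly the same fold change when any of 3 control libraries was left out: at 1.76 without control diet replicate 1, 1.77 without control diet replicate 2 and 1.65 without TJ-41 replicate 2, with adjusted p-values of 0.0680, 0.0586 and 0.0620.

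*Jchain*, which joins the units of secreted IgM and IgA, was at 43.3 and 63.3 CPM in control mice fed control diet, 201 and 185 in control mice fed TJ-41, 803 and 521 in model mice fed control diet, and 895 and 314 in model mice fed TJ-41. It was called higher in the model over both diets, at 2.64 (SE 0.32, adjusted p = 0.00969), and it was the only gene called among 12 plasma cell genes, of which 10 were higher and 2 lower with a median of 0.25. By diet it was called at 3.64 on the control diet (adjusted p = 0.0343) and not called at 1.64 on TJ-41 (adjusted p = 0.465). On TJ-41 it was at 0.70 without replicate 1 of model mice fed TJ-41. DESeq2 called it on both diets. On the control diet it was at 3.287 without replicate 1 and 3.915 without replicate 2 of model mice. Without replicate 1 and without replicate 2 of control mice fed control diet it was at 3.39 and 3.93. Over both diets, without replicate 1 or replicate 2 of model mice fed control diet it was at 2.47 and 2.78, and called in both. Without any 1 of the 4 control libraries it was at 2.52 to 2.79 and not called, with adjusted p-values from 0.0780 to 0.116.

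**Figure D5:**
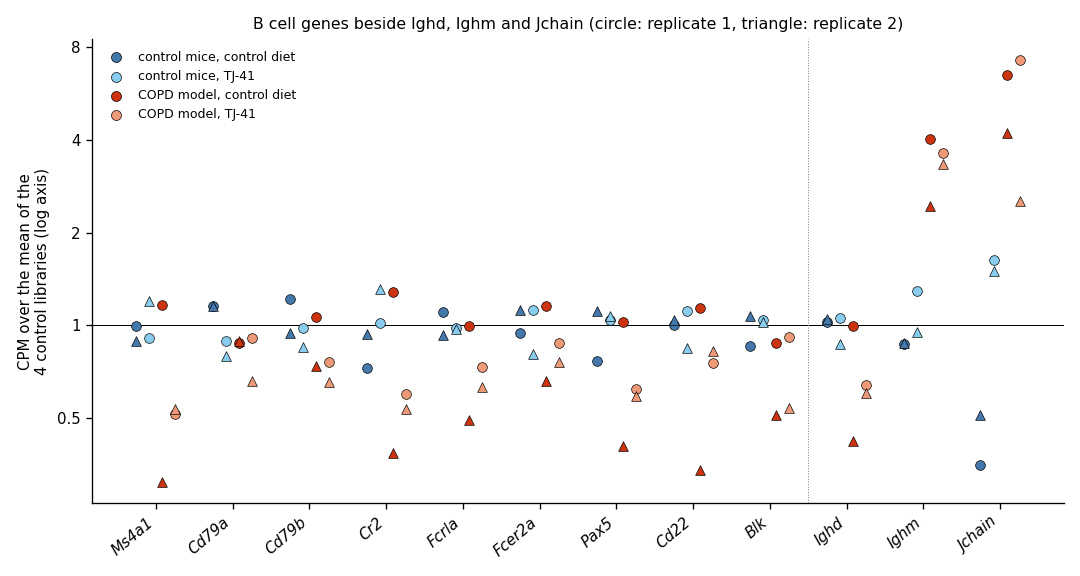
CPM of each B cell gene, and of *Ighd*, *Ighm* and *Jchain*, divided by the mean of the 4 control libraries, on a log axis, with a point for each library (circles replicate 1, triangles replicate 2). Replicate 2 of model mice fed control diet lies lowest for most B cell genes and for *Ighd*, while all 4 model libraries lie above the controls for *Ighm* and *Jchain*.

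In 27 other B cell surface and identity genes, 11 were higher and 16 lower in model mice over both diets, with a median of -0.13 and 0 called. Those farthest from 0 were *Vpreb3* at 0.95, *Cd5* at 0.73 and *Bank1* at -0.70. *Vpreb3*, a protein related to the surrogate light chain of developing B cells, was at 11.4 and 11.8 CPM in control mice fed control diet, 12.7 and 11.0 in control mice fed TJ-41, 20.2 and 29.3 in model mice fed control diet, and 20.1 and 21.3 in model mice fed TJ-41. All 4 model libraries of *Vpreb3* were above all 4 controls, and it passed the false discovery rate (adjusted p = 0.0428) but not the fold threshold. It no longer passed the false discovery rate without any 1 of the 4 control libraries (adjusted p from 0.199 to 0.290), without replicate 1 (0.172) or replicate 2 (0.150) of model mice fed TJ-41, or with the replicate number as a block (adjusted p = 0.0796), and without replicate 1 of model mice fed control diet it was called at 1.07. *Bank1*, an adaptor of B cell receptor signalling, was at 34.2 and 32.8, 34.3 and 36.7, 36.2 and 8.72, and 18.7 and 21.6 CPM, with the same split of model mice fed control diet as the 9 genes. *Cd5* is shared by T cells and a subset of B cells.

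Of 18 genes of B cell receptor signalling, 6 were higher and 12 lower over both diets, with a median of -0.061 and 0 called, and *Ifitm1* at 0.54, *Rasgrp3* at -0.46 and *Syk* at -0.35 were farthest from 0. Of 6 germinal center genes tested, 3 were higher and 3 lower with 0 called, and *Fas* (-0.26), *Gcsam* (0.23) and *Mybl1* (-0.18) were farthest from 0. Of 8 follicle stroma and chemokine genes tested, 5 were higher and 3 lower with 0 called, led by *Lta* (0.51), *Clu* (0.45) and *Ccr7* (-0.32).

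Markers of other cells had fold changes on both sides of 0 in model mice over both diets, and 0 were called. The smallest adjusted p among T cell markers was 0.0379 (edgeR's quasi-likelihood test), which passed the false discovery rate but not the fold threshold. Of 16 T cell markers 13 were higher, led by *Thy1* (0.95), *Cd5* (0.73) and *Cd6* (0.66), and their sum was 173 to 184 CPM in control mice and 198 to 267 in the model, so the T cell sum was above the controls where the B cell sum was 343 to 356 CPM in control mice and 179 to 379 in the model. Of 8 NK cell markers 7 were lower (*Ncr1* -0.65, *Gzma* -0.55, *Klrb1c* -0.43), with sums of 82.6 to 121 and 45.4 to 126 CPM. Of 10 macrophage and monocyte markers 6 were higher, and *Chil3* (1.31), *Siglecf* (-1.19) and *Marco* (1.05) were farthest from 0, with sums of 835 to 1008 CPM in control mice and 1209 to 1773 in the model. Of 7 neutrophil markers tested 5 were lower (*Csf3r* -0.27, *Cxcr2* -0.21, *Mmp9* -0.17), with sums of 172 to 267 and 73.8 to 370 CPM. Of 8 dendritic cell markers 5 were lower (*Siglech* -0.75, *Flt3* 0.44, *Xcr1* 0.43), with sums of 219 to 254 and 217 to 281 CPM. Of 5 pan-leukocyte genes 3 were higher (*Laptm5* 0.32, *Ptprc* -0.26, *Cd52* 0.22), summing to 795 to 831 CPM in control mice and 601 to 1000 in the model. Of 10 lung markers 6 were higher (*Sftpc* 0.55, *Foxj1* 0.47, *Sftpd* 0.46), and of 7 thymus, heart and fat markers tested 5 were higher (*Nppa* 1.31, *Cfd* 1.01, *Adipoq* 0.70), with the thymus gene *Rag2* at 0 in all 8 libraries. The part of these cells in the B cell gene levels was not tested.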

How the data were processed

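Total RNA from mouse lung was sequenced by the authors in 8 libraries, 2 per group, and groups and replicate numbers were taken from the deposited sample labels, where the herbal diet is spelled TJ41 or TJ4. The authors deposited raw counts, whole numbers for each Ensembl gene identifier, not scaled in any way. The submitters' processing notes name HISAT2, edgeR and the mm10 (GRCm38) build, without versions, and the authors' methods name CLC Genomics Workbench. The counting program, annotation release, strand setting and handling of multi-mapped reads are not given in the sources used here. Of 52636 identifiers, 52489 were found in GENCODE M21, and 159 of 161 listed symbols matched 1 identifier (*Ccl19* and *Ccl21a* matched several and were left out).

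The 9 genes and the other gene lists were chosen with earlier results of these data known. Counts were analysed with edgeR 4.0.16 (limma 3.58.1, R 4.3.3): filterByExpr (minimum count 10, total 15), TMM, a mean per group and the quasi-likelihood test with 4 residual degrees of freedom and Benjamini-Hochberg adjustment over 20546 genes. Standard errors came from the fold change and F statistic. The procedure was tested on simulated data with known changes. Per-length levels divide CPM by the summed exon length of GENCODE. With 2 libraries against 2, an exact permutation test cannot go below p = 0.333 (two-sided), so none was used. Depth was 18767295 to 20888042 counts per library with a common biological coefficient of variation of 0.208. Floors cover counting error only.

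All 9 genes are named with every library. From each other list, genes called in any comparison are named, or otherwise the 3 tested genes with the largest absolute log2 fold change in the model over both diets, and the genes most correlated with the set are named, except that 1 gene is not reported here. *H2-Ob*, *Rag2* and overlapping genes are mentioned as parts of these lists or of the annotation. Alternatives were DESeq2 1.42.0, RLE or library size scaling, other low-count filters, only the 2 groups compared, the false discovery rate without a fold threshold, a replicate block, leaving out each library, and, added after seeing the data, a loess correction for exon length and GC content.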

Additional observations from a re-analysis of the deposited data

Results flagged for a closer look

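Among the 4 libraries of model mice, *Cd79a* was lowest in replicate 2 on TJ-41, at 19.581 CPM, while the other 3 libraries lay between 26.0 and 27.1 CPM. The gap from this library to the next was 0.859 of the whole range of the 4, which set it apart from the others. Dixon's test was run on 24 sets of 4 libraries, and chance sets a library apart in about 1 of 20 sets. The cause was not tested.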

How the results depend on the processing

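Of 477 values under alternatives other than leaving out a library, 466 kept their direction and their side of the threshold, 9 changed direction and 2 passed the threshold. The count of B cell genes called was 0 in every alternative that kept all libraries except the fit of only the 2 groups on TJ-41, which called 2. The values that changed direction were all small: *Cr2* in model mice fed control diet was -0.0087 with library size alone, -0.0030 with all genes of at least 1 count, and -0.058 with the length and GC correction; with that correction *Ms4a1* was -0.058 for TJ-41 in control mice and *Cd22* was -0.0060 for TJ-41 in the model and -0.020 for TJ-41 over both kinds of mice; with library size alone *Blk* was 0.021 for the difference of the diet effects. The cause was not tested.

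With the replicate number as a block, 0 B cell genes were called in all 7 comparisons, *Cr2* in model mice fed control diet was -0.077 and *Fcer2a* for the difference of the diet effects was 0.016. The numbers did not pair the libraries, since the correlation of replicate differences in any 2 groups lay between -0.23 and 0.11.

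Leaving out each library in turn gave 504 values, of which 433 kept direction and side, 61 changed direction and 10 others passed the threshold, while 1 of the 61, *Cr2* in model mice fed control diet at -1.11, also passed it. The count of B cell genes called ranged from 0 to 5 for model mice fed control diet, from 0 to 1 on TJ-41, from 0 to 3 over both diets and from 0 to 1 for TJ-41 in the model, and each count above 0 came without a library of model mice fed control diet. Log2 fold changes that changed direction had these ranges. For model mice fed control diet the ranges were *Ms4a1* -1.61 to 0.31, *Cr2* -1.11 to 0.63, *Fcer2a* -0.65 to 0.17, *Pax5* -1.22 to 0.12 and *Cd22* -1.60 to 0.16. For model mice fed TJ-41 the ranges were *Cd79a* -0.34 to 0.12 and *Fcer2a* -0.46 to 0.028. For TJ-41 in control mice the ranges were *Ms4a1* -0.046 to 0.34, *Fcrla* -0.19 to 0.063, *Fcer2a* -0.37 to 0.12, *Pax5* -0.078 to 0.46, *Cd22* -0.29 to 0.12 and *Blk* -0.059 to 0.26. For TJ-41 in the model the ranges were *Ms4a1* -1.15 to 0.77, *Cd79a* -0.41 to 0.053, *Cr2* -1.18 to 0.55, *Fcrla* -0.55 to 0.47, *Fcer2a* -0.50 to 0.31, *Pax5* -0.76 to 0.58, *Cd22* -0.52 to 1.23 and *Blk* -0.35 to 0.51. For TJ-41 over both kinds of mice the ranges were *Ms4a1* -0.50 to 0.46, *Cr2* -0.35 to 0.52, *Fcrla* -0.31 to 0.20, *Fcer2a* -0.31 to 0.10, *Pax5* -0.30 to 0.37, *Cd22* -0.30 to 0.58 and *Blk* -0.13 to 0.30. For the difference of the diet effects the ranges were *Ms4a1* -1.30 to 0.61, *Cd79b* -0.35 to 0.19, *Cr2* -1.66 to 0.068, *Fcrla* -0.47 to 0.55, *Fcer2a* -0.39 to 0.42, *Pax5* -0.92 to 0.42, *Cd22* -0.45 to 1.30 and *Blk* -0.44 to 0.42.

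The limits are 2 libraries per group, a pair of model libraries whose B cell genes differed by up to 1.91 on the log2 scale, and a depth that gave at least 171 counts for each of the 9 genes, so that counting error was small beside the spread between libraries.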
